A study of Mus musculus with 8 samples.

Results

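A set of 10 genes of the linear ubiquitin and kinase arm below TNF receptor 1 was described in liver RNA of ethanol-fed mice: Rnf31, Rbck1 and Sharpin, Otulin, Map3k7 and Tab2, Ikbkg, Ikbkb and Chuk, and Ikbke. They were chosen by gene symbol, matched to the Ensembl IDs of the count table, and make up 10 of the 55335 genes in it. Poly(A)-selected, strand-specific RNA of whole liver was sequenced in 8 female mice, all on the NIAAA chronic-plus-binge ethanol model, which ends a period on an ethanol liquid diet with an ethanol gavage. Ripk1 was deleted in hepatocytes in 4 mice (Ripk1-hepKO, numbers 28, 34, 37 and 39), and 4 mice were controls (Ripk1-Con, numbers 29, 32, 40 and 41). Each library came from a separate mouse, and values below follow that order of mouse numbers within each group. The Cre driver, the floxed allele, the strain and the age are not given in the sources used here, and animals kept off ethanol are not analysed here.

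When TNF binds its receptor, TRADD, RIPK1, TRAF2 and the cIAP ubiquitin ligases gather at the receptor and build ubiquitin chains. The linear ubiquitin chain assembly complex (LUBAC) then adds methionine-linked, linear chains, which the IKK scaffold NEMO binds, while the deubiquitinase OTULIN cuts them. The TAK1 kinase, held on ubiquitin by TAB2, activates IKK-beta, which marks the NF-kB inhibitor for destruction. In hepatocytes this arm is known both to switch on survival genes and to hold back cell death by RIPK1 and caspase-8.

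Totals ran from 28038390 to 67328158 counts per library, and every one of the 10 genes had at least 419 counts in every library. Hepatocyte markers dominated, with Alb at 48465 to 68917 CPM (counts scaled to library size with TMM) in Ripk1-hepKO livers and 74428 to 90592 CPM in Ripk1-Con livers. These ranges did not overlap, but the difference did not pass (edgeR adjusted p = 0.742; DESeq2 adjusted p = 0.334). Of the 8 hepatocyte markers, 2 had groups that did not overlap, Alb and Ttr, where 4.1% of all genes tested did. Fgb was the 1 marker of the 8 with a log2 ratio above 0 (0.35). Ripk1 itself stood at 32.5 ± 6.63 CPM in Ripk1-hepKO and 37.5 ± 11.2 CPM in Ripk1-Con (SD, n = 4 each), with overlapping groups (log2 ratio -0.21; adjusted p = 0.866 in edgeR). A count per gene in whole liver cannot show a lost exon, so the groups rest on the labels. Ripk1-hepKO mouse 28 stood apart, with a mean Spearman correlation of 0.954 with the other libraries, against 0.974 to 0.980 for the rest. Mouse 28 was the highest or the lowest of the 8 mice in 8 of the 10 genes. The same share over all genes was not counted, so this is not read as a trait of these genes. Ripk1-Con mouse 40 had the lowest summed Kupffer cell, monocyte, neutrophil, T and NK cell, stellate cell and cholangiocyte markers. In whole tissue, fewer cells of a type and less RNA per cell cannot be told apart.

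Promoter windows were read for 8 of the 10 genes from RefSeq (GRCm38.p6), each from 250 bases before to 50 bases after an annotated start; Sharpin and Ikbkb had no entry in the table used. The window of Ikbke, the gene with the largest genotype difference, and that of Map3k7, the gene with the smallest standard error, are shown 5′ to 3′ with each CG pair in capitals. They lie at chr1:131279514-131279813 on the minus strand and chr4:31963857-31964156 on the plus strand.
Ikbke: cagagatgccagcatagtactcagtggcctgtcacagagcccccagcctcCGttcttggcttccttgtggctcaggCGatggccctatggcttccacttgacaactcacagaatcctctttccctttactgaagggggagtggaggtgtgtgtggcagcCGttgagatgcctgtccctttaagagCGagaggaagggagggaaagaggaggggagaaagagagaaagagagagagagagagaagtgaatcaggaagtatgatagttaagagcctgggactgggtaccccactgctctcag
Map3k7: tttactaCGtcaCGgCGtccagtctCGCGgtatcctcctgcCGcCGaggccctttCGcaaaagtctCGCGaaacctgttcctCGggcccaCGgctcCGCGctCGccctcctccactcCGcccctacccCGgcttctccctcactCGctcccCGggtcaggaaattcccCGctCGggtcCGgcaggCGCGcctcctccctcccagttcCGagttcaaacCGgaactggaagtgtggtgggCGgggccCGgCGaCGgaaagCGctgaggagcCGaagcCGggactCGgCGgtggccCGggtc
The Ikbke window held 4 CG pairs and that of Map3k7 36, against a median of 7 over 32851 windows. In the windows nearest the GENCODE gene start, the other 6 genes held 15 (Ikbkg and Rbck1), 17 (Rnf31), 21 (Chuk), 31 (Otulin) and 44 (Tab2).

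None of the 10 genes passed the test between genotypes, and 8 of them differed by less than 0.15 on the log2 scale, a limit set after the values were seen that 45.5% of all genes met. Ikbke and Sharpin were the exceptions in size, both with higher means in Ripk1-hepKO. An FDR of 0.05 in edgeR's quasi-likelihood test was passed by 0 of 10, where 0% of the 15234 genes tested passed (lowest adjusted p = 0.742). DESeq2 called 0.0963% of genes and also none of the 10. An unadjusted p under 0.05 was reached by 2 of 10, both higher, against 6.68% of all genes tested (3.86% higher and 2.82% lower in Ripk1-hepKO). Without mouse 28 it was reached by 1 of 10, Ikbke, against 5.75% of all genes. The groups overlapped for all 10, while 4.1% of all genes had groups that did not overlap. The median log2 fold change was 0.03 over the 10 genes and 0.01 over all genes tested. The median size of the difference, whatever its sign, was 0.05 over the 10 and 0.17 over all genes, with a median SE of 0.13 and 0.21.

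**Figure D1:**
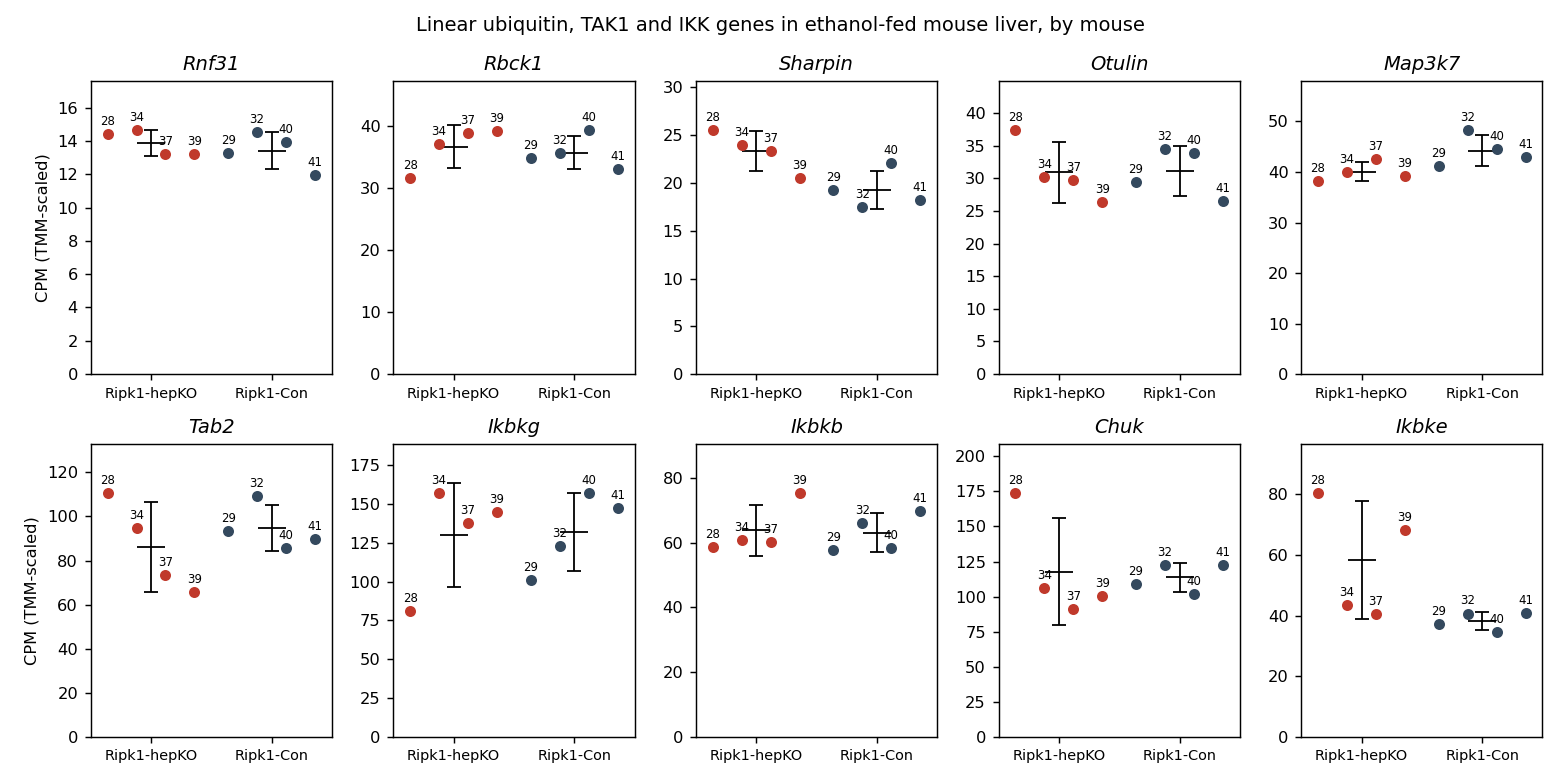
Level of each gene in each mouse, in TMM-scaled CPM from 0 up, with mouse numbers, the mean and the SD (n = 4 per group). Ikbke reached 80.6 and 68.3 CPM in Ripk1-hepKO mice 28 and 39, against 34.7 to 40.7 CPM in Ripk1-Con, while the Rnf31 and Rbck1 groups lay on top of each other.

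LUBAC has 3 subunits. Rnf31 (ENSMUSG00000047098, chromosome 14, 55591708 to 55603693, plus strand; all positions on GRCm38) encodes HOIP, the subunit that joins ubiquitin into linear chains. It measured 14.4, 14.7, 13.2 and 13.2 CPM among Ripk1-hepKO livers, against 13.3, 14.5, 13.9 and 11.9 CPM among Ripk1-Con livers. No mouse was far from the rest, and the groups differed by 0.05 ± 0.11 (log2, SE; edgeR adjusted p = 0.943). The 95% confidence interval placed Ripk1-hepKO between 87.1% and 123% of the control level, and the difference was 0.03 without mouse 28. Its exons share 123 bp with those of Irf9 on the same strand, 2.15% of their length, and Irf9 stood at 22.2 ± 3.99 CPM in Ripk1-hepKO and 27.96 ± 3.17 CPM in Ripk1-Con.

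Rbck1 (ENSMUSG00000027466, chromosome 2, 152316334 to 152332653, minus strand) encodes HOIL-1, the subunit that also places ubiquitin on serine and threonine. It measured 31.6, 37.02, 38.9 and 39.2 CPM among Ripk1-hepKO livers. Among Ripk1-Con livers it measured 34.9, 35.6, 39.4 and 33.0 CPM. Mouse 28 was the lowest of all 8. The Rbck1 difference was 0.04 ± 0.11 (log2, SE; edgeR adjusted p = 0.955), which the interval puts at 87.2% to 121% of control, and 0.10 without mouse 28.

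Sharpin (ENSMUSG00000022552, chromosome 15, 76347040 to 76351111, minus strand) encodes the adaptor that stabilises HOIP, and mice without it are known for chronic skin inflammation. It measured 25.6, 23.98, 23.3 and 20.5 CPM among Ripk1-hepKO livers, against 19.3, 17.5, 22.1 and 18.2 CPM among Ripk1-Con livers. In Ripk1-hepKO, 3 mice were above every control, while mouse 39 lay below Ripk1-Con mouse 40. The means were 23.3 ± 2.09 CPM in Ripk1-hepKO and 19.3 ± 2.01 CPM in Ripk1-Con (SD, n = 4 each). The log2 fold change of 0.28 ± 0.12 (SE) had an unadjusted p of 0.0389 and did not pass (edgeR adjusted p = 0.742; DESeq2 adjusted p = 0.644). The difference stayed positive in each fit that left out 1 mouse, from 0.23 to 0.36, and was 0.23 without mouse 28. In those edgeR fits the unadjusted p ran from 0.0140 without Ripk1-Con mouse 40 to 0.101 without Ripk1-Con mouse 32. It was 0.0766 without mouse 28.

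Otulin (ENSMUSG00000046034, chromosome 15, 27542635 to 27630693, minus strand) encodes the deubiquitinase that cuts linear chains. It measured 37.4, 30.2, 29.8 and 26.3 CPM among Ripk1-hepKO livers, against 29.4, 34.5, 33.9 and 26.5 CPM among Ripk1-Con livers. The highest and the lowest mouse were both Ripk1-hepKO. Between groups it differed by -0.0070 ± 0.14 (log2, SE; edgeR adjusted p = 0.996), with an interval of 80.4% to 123% of control, and by -0.11 without mouse 28. Its sign turned with small changes of the fit, so no direction is given.

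In the TAK1 complex, the kinase and its ubiquitin-binding partner both had slightly lower means in Ripk1-hepKO, and neither passed. Map3k7 (ENSMUSG00000028284, chromosome 4, 31964097 to 32023467, plus strand) encodes TAK1. It measured 38.3, 40.005, 42.6 and 39.3 CPM among Ripk1-hepKO livers, against 41.2, 48.3, 44.5 and 42.9 CPM among Ripk1-Con livers. Only mouse 37 reached into the control range. The Map3k7 log2 fold change, -0.14 ± 0.09 (SE; edgeR adjusted p = 0.779), had the smallest standard error of the 10 and an interval of 78.6% to 104% of control, and was -0.12 without mouse 28.

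Tab2 (ENSMUSG00000015755, chromosome 10, 7905653 to 7956230, minus strand) measured 111, 94.8, 73.5 and 65.6 CPM among Ripk1-hepKO livers. Among Ripk1-Con livers it measured 93.5, 109, 85.7 and 89.9 CPM. Ripk1-hepKO mice 37 and 39 lay below all controls, while mouse 28 lay above them. With all mice the log2 fold change was -0.14 ± 0.17 (SE; edgeR adjusted p = 0.892). It was -0.28 without mouse 28 and -0.02 without mouse 39, and neither fit passed (edgeR adjusted p = 0.906 and 0.981).

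The canonical IKK complex joins the kinases IKK-alpha (Chuk) and IKK-beta (Ikbkb) to the scaffold NEMO (Ikbkg). Its 3 genes had log2 fold changes within 0.06 of 0, and mouse 28 held the extremes of the scaffold and of IKK-alpha. Ikbkb (ENSMUSG00000031537, chromosome 8, 22659212 to 22706589, minus strand) measured 58.5, 60.9, 60.3 and 75.5 CPM among Ripk1-hepKO livers, against 57.6, 66.2, 58.3 and 69.9 CPM among Ripk1-Con livers. Mouse 39 was well above the other Ripk1-hepKO mice and the highest of all. The Ikbkb group difference was 0.02 ± 0.12 (log2, SE; edgeR adjusted p = 0.985), with an interval of 84.4% to 122% of control, and 0.06 without mouse 28.

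Ikbkg (ENSMUSG00000004221, chromosome X, 74393290 to 74453854, plus strand) measured 81.2, 157, 138 and 145 CPM among Ripk1-hepKO livers. Among Ripk1-Con livers it measured 101, 123, 157 and 147 CPM. Mouse 28 was the lowest of the 8. The Ikbkg log2 fold change was -0.02 ± 0.22 (SE; edgeR adjusted p = 0.990) with all mice and 0.15 without mouse 28. Its exons share 418 bp with G6pdx on the opposite strand, 5.15% of their length, and G6pdx stood at 6.10 ± 3.45 CPM in Ripk1-hepKO and 4.64 ± 1.25 CPM in Ripk1-Con.

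Chuk (ENSMUSG00000025199, chromosome 19, 44073335 to 44107480, minus strand) measured 174, 106, 90.8 and 100 CPM among Ripk1-hepKO livers. Among Ripk1-Con livers it measured 109, 122, 102 and 122 CPM. Mouse 28 was the highest of the 8, and 2 of the other Ripk1-hepKO mice lay below all controls. The Chuk log2 fold change was 0.05 ± 0.20 (SE; edgeR adjusted p = 0.969) with all mice and -0.20 without mouse 28. Per length, the ratio of Ikbkg to Chuk was 0.292 in mouse 28, 0.907 to 0.953 in the other Ripk1-hepKO mice and 0.584 to 0.972 in Ripk1-Con. That ratio was chosen after the values had been seen.

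Ikbke (ENSMUSG00000042349, chromosome 1, 131254343 to 131279606, minus strand) encodes IKK-epsilon, a kinase related to TBK1 that acts on interferon factors and whose gene is known to be induced by inflammatory signals. It measured 80.6, 43.5, 40.4 and 68.3 CPM among Ripk1-hepKO livers, against 37.1, 40.7, 34.7 and 40.7 CPM among Ripk1-Con livers. Ripk1-hepKO mice 28 and 39 were far above the controls, mouse 34 was just above them and mouse 37 lay within their range. The means were 58.2 ± 19.4 CPM in Ripk1-hepKO and 38.3 ± 2.94 CPM in Ripk1-Con (SD, n = 4 each), and the coefficient of variation was 33.4% among Ripk1-hepKO livers, against 7.68% among Ripk1-Con livers.

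For Ikbke the log2 fold change was 0.60 ± 0.22 (SE), or 1.52-fold, with a 95% interval of 109% to 213% of the control level. The unadjusted p was 0.0200, and the gene did not pass (edgeR adjusted p = 0.742; DESeq2 adjusted p = 0.446). Of all genes tested, 2.51% had a smaller p. Leaving out mouse 28 gave 0.41, leaving out mouse 39 gave 0.52 and leaving out both 28 and 40 gave 0.36, and none of these passed (edgeR adjusted p = 0.857, 0.670 and 0.606). Antisense genes that share 159 and 65 bp with its exons had at most 0.199 CPM in any mouse.

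**Figure D2:**
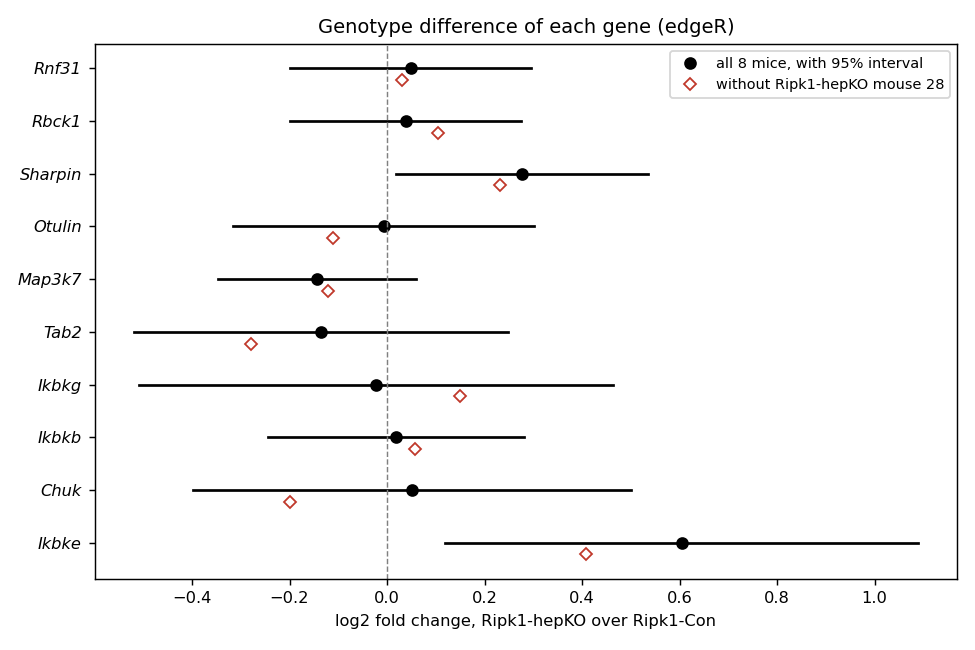
Log2 fold change of each gene, Ripk1-hepKO over Ripk1-Con, from edgeR with all 8 mice (black, with the 95% interval) and without Ripk1-hepKO mouse 28 (open diamonds). Ikbke at 0.60 and Sharpin at 0.28 have intervals above 0 before adjustment, and leaving out mouse 28 moves Chuk to -0.20 and Ikbkg to 0.15.

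Immune cells also express Ikbke, so their marker levels were set beside it. Counts of markers above 0 stand beside 51.8% of all genes tested with a log2 fold change above 0. Summed neutrophil markers ran from 11.0 to 53.2 CPM in Ripk1-hepKO and from 4.38 to 37.1 CPM in Ripk1-Con, with 8 of 8 tested markers above 0 in log2 fold change and Ly6g, Retnlg, Ngp and Camp at 0 counts in at least 1 mouse. Summed monocyte and macrophage markers ran from 107 to 229 CPM in Ripk1-hepKO and from 54.6 to 186 CPM in Ripk1-Con, with 11 of 11 above 0 and Ms4a7 at 0 in at least 1 mouse. Kupffer cell markers ran from 248 to 380 CPM in Ripk1-hepKO and from 97.2 to 411 CPM in Ripk1-Con, with 8 of 9 above 0. T and NK cell markers summed to 4.49 to 6.38 CPM in Ripk1-hepKO and 3.62 to 5.85 CPM in Ripk1-Con, with 5 of 8 tested above 0 and Nkg7 and Ncr1 at 0 in at least 1 mouse.

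Endothelial markers summed to 142 to 231 CPM in Ripk1-hepKO and 111 to 193 CPM in Ripk1-Con, with 5 of 7 above 0. Stellate cell markers summed to 347 to 468 CPM in Ripk1-hepKO and 292 to 356 CPM in Ripk1-Con, with 9 of 9 above 0. Cholangiocyte markers summed to 15.5 to 62.8 CPM in Ripk1-hepKO and 13.5 to 34.7 CPM in Ripk1-Con, with 5 of 5 tested above 0 and Cftr at 0 in at least 1 mouse. Most of this sum was Spp1, at 31.0 ± 17.1 CPM in Ripk1-hepKO and 23.5 ± 9.07 CPM in Ripk1-Con. Spp1 is also counted among the monocyte and macrophage markers. Hepatocyte markers summed to 84989 to 102550 CPM in Ripk1-hepKO and 97176 to 118955 CPM in Ripk1-Con, with 1 of 8 above 0.

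The groups overlapped in each of these 8 sums. Mouse 28, the highest in Ikbke, was also the highest of the 8 mice in the neutrophil, monocyte, stellate cell and cholangiocyte sums. The monocyte and cholangiocyte sums share Spp1, so their ranks are not independent. Mouse 39, the next highest in Ikbke, was the lowest Ripk1-hepKO mouse in the neutrophil, monocyte, Kupffer cell and cholangiocyte sums. It was the lowest of all 8 in the hepatocyte sum and the highest of all 8 in the endothelial sum. The part of cell content in the Ikbke values was not tested.

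The genes whose level followed Ikbke most closely over the 8 mice were Sema3d, Tuba1a and Tnfaip3. They had the highest Pearson correlations of log2(CPM + 1) among 12512 genes, at 0.983, 0.958 and 0.956, with Spearman values of 0.929, 0.952 and 0.857. The 2 highest Ikbke mice carry much of this: without mice 28 and 39 the Pearson values were 0.863, 0.792 and 0.828 over 6 mice. The 3 genes were picked as the highest over all 8 mice, so high values follow from the choice, also over the 6. A Pearson value above 0.9 was reached by 47 of the 12512 genes. Tnfaip3 encodes A20, a ubiquitin-editing enzyme that NF-kB induces and that restrains the same arm. It measured 11.5, 6.13, 5.07 and 8.21 CPM among Ripk1-hepKO livers, against 4.79, 5.74, 3.65 and 4.35 CPM among Ripk1-Con livers. As for Ikbke, mice 28 and 39 were the highest and mouse 37 lay within the control range.

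**Figure D3:**
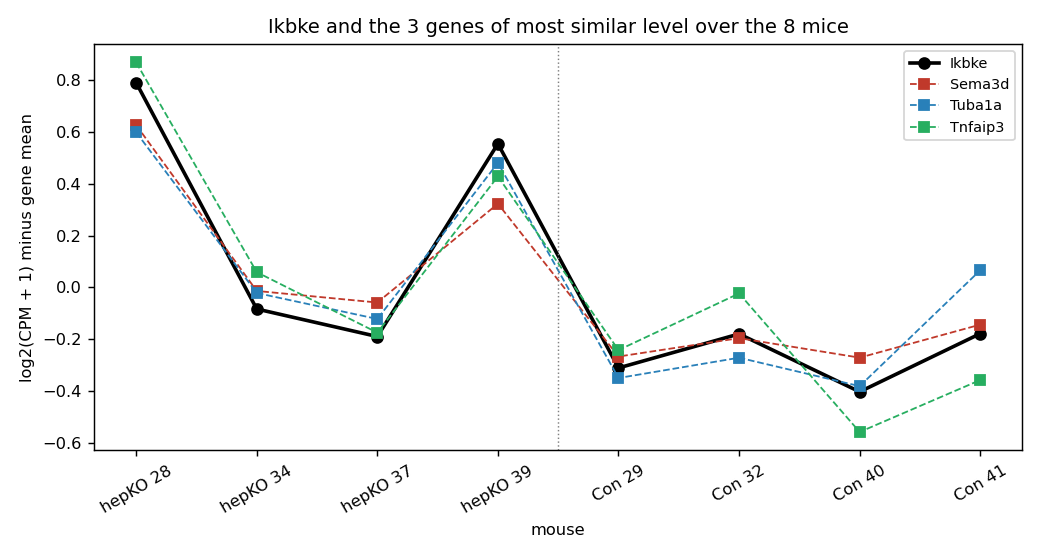
Level of Ikbke and of the 3 genes most like it in each mouse, as log2(CPM + 1) minus the gene's own mean, with Ripk1-hepKO mice left of the dotted line and Ripk1-Con mice right of it. All 4 lines peak in mice 28 and 39, where Ikbke stood at 80.6 and 68.3 CPM.

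Levels between genes were compared per length, in TPM, a level scaled for length, here that of the union of annotated exons. Chuk was the highest at 49.5 ± 8.01 TPM (SD over 8 mice), followed by Otulin at 40.1 ± 4.14, Ikbkg at 35.96 ± 9.35 and Tab2 at 32.1 ± 3.72 TPM. Rbck1 stood at 17.4 ± 2.55, Map3k7 at 14.4 ± 1.43, Sharpin at 12.3 ± 1.82 and Ikbke at 11.7 ± 3.94 TPM. Ikbkb stood at 7.33 ± 1.11 and Rnf31 at 5.23 ± 0.421 TPM. By union length, neighbours kept their order in all 8 mice for Tab2 over Rbck1, Rbck1 over Map3k7, Ikbke over Ikbkb and Ikbkb over Rnf31. The other neighbours crossed: Chuk exceeded Otulin in 7 of 8 mice, Map3k7 exceeded Sharpin in 6 and Sharpin exceeded Ikbke in 6, while Otulin over Ikbkg and Ikbkg over Tab2 held in 5.

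Within LUBAC, Rnf31, which encodes the subunit that joins ubiquitin into linear chains, had the lowest RNA level per length. Rbck1 exceeded Rnf31 by a median of 3.36 times (2.73 to 3.70 over the 8 mice) and Sharpin exceeded it by 2.36 times (1.81 to 2.67). With the longest transcript as length, these medians were 5.58 and 4.07, so the order of Rnf31 below both held in 8 of 8 mice under either length. Rbck1 over Rnf31 averaged 3.31 ± 0.461 among Ripk1-hepKO livers, against 3.32 ± 0.208 among Ripk1-Con livers (SD, n = 4 each). Ikbkb had 19078 bp of annotated exons but a longest transcript of 4845 bp, and with that length it moved to 24.9 TPM and the sixth place. Some orders given above turned with the longest transcript as length. Ikbke then exceeded Ikbkb in only 1 of 8 mice. By mean TPM, Map3k7 at 13.8 then lay below Sharpin at 21.2, and Ikbkg at 35.9 below Tab2 at 38.8. These are RNA levels and say nothing of subunit ratios in protein.

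**Figure D4:**
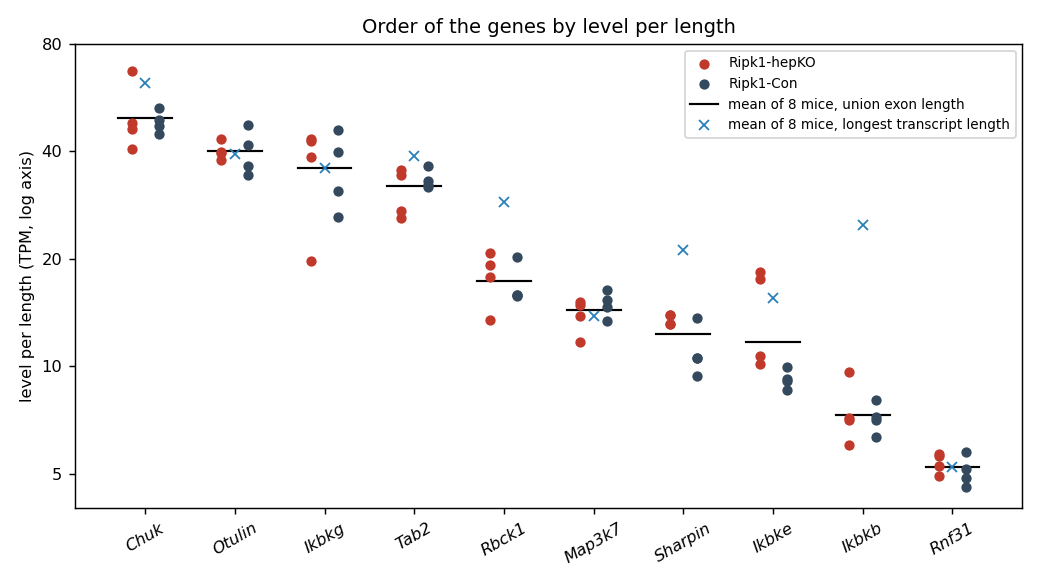
Level of the 10 genes per length in each mouse (TPM, log axis), with the mean over 8 mice for the union of exons (line) and for the longest transcript (cross). Rnf31 is lowest under both, at 5.23 TPM in each, while Ikbkb moves between 7.33 and 24.9 TPM.

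Around these genes, 61 further genes of the pathway were listed in 8 groups, and 59 of them were tested. None passed the FDR. An unadjusted p under 0.05 was reached by 10 in the higher and 1 in the lower direction, together 18.6% against 6.68% of all genes tested, and the groups did not overlap for 6 (10.2% against 4.1%). Without mouse 28, that p was reached by 6 in the higher and 3 in the lower direction, together 15.3% against 5.75% of all genes. Among all genes, 419 were then higher and 472 lower at that p. Of the 59, 36 lay above 0 without mouse 28, against 41 with all mice. Among all genes, 7856 of 15500 lay above 0 without mouse 28, against 51.8% with all mice. The lists were written with earlier results of these data known, so these shares are descriptions.

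At the receptor, log2 fold changes had a median of 0.27 and 7 of 8 were positive, while without mouse 28 the median was 0.20. Birc3, the cIAP that NF-kB itself induces, stood at 13.3 ± 3.08 CPM in Ripk1-hepKO and 8.31 ± 1.17 CPM in Ripk1-Con (log2 ratio 0.68 with an SE of 0.18; adjusted p = 0.742 in edgeR). Traf2, the adaptor that brings cIAPs to the receptor, stood at 10.9 ± 1.495 CPM in Ripk1-hepKO and 8.35 ± 0.663 CPM in Ripk1-Con (log2 ratio 0.38; adjusted p = 0.742 in edgeR). The groups did not overlap for either gene. Tnf was near the floor, at 0.550, 0.279, 0.467 and 0.668 CPM among Ripk1-hepKO livers, against 0.599, 0.372, 0.166 and 0.0475 CPM among Ripk1-Con livers.

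Enzymes that load ubiquitin lay about evenly around 0, with 4 of 6 E2 enzymes above it and a median of 0.0050. Genes listed as editing or binding it lay mostly above 0. Ube2l3, the E2 that serves HOIP, stood at 78.0 ± 2.02 CPM in Ripk1-hepKO and 86.9 ± 7.40 CPM in Ripk1-Con, and Ube2d1 at 6.80 ± 1.31 CPM in Ripk1-hepKO and 8.03 ± 1.06 CPM in Ripk1-Con (edgeR adjusted p = 0.774 and 0.806). Of 8 tested genes in the editing and binding list, 6 lay above 0. Their median of 0.35 was 0.09 without mouse 28 and -0.0027 without mice 28 and 40, taken over all 8. The list includes Otulinl (log2 ratio 0.36), a relative of Otulin that was named after its values were seen. Tnfaip3 averaged 7.73 ± 2.83 CPM in Ripk1-hepKO and 4.63 ± 0.874 CPM in Ripk1-Con (log2 ratio 0.74; adjusted p = 0.742 in edgeR). Spata2, which joins the deubiquitinase CYLD to HOIP, averaged 11.4 ± 2.66 CPM in Ripk1-hepKO and 8.85 ± 1.14 CPM in Ripk1-Con (edgeR adjusted p = 0.768). Tnip3 was not tested, being at or near 0.

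Beside TAK1, 7 of 9 partners and MAP3 kinases lay above 0, with a median of 0.18. Without mouse 28 the median was -0.0082 and 4 of 9 lay above 0; it was -0.11 without mice 28 and 40 and 0.29 without Ripk1-Con mouse 32. Traf3, which restrains the noncanonical kinase NIK, stood at 14.4 ± 2.36 CPM in Ripk1-hepKO and 11.1 ± 0.534 CPM in Ripk1-Con. Map3k3 stood at 16.9 ± 1.14 CPM in Ripk1-hepKO and 13.8 ± 1.73 CPM in Ripk1-Con (edgeR adjusted p = 0.742 for both). In the MAP kinase arm, 7 of 9 lay above 0, with a median of 0.11. That median was 0.20 without mouse 28, 0.17 without Ripk1-hepKO mouse 37, 0.25 without Ripk1-Con mouse 41 and 0.22 with limma voom. Map2k7, the kinase that activates JNK on TNF, stood at 35.3 ± 4.79 CPM in Ripk1-hepKO and 43.3 ± 1.66 CPM in Ripk1-Con, and no Ripk1-hepKO mouse reached the lowest control (log2 ratio -0.30 with an SE of 0.11; adjusted p = 0.742 in edgeR). The groups also did not overlap for Map2k3 (log2 ratio 0.21) and Mapk9 (0.27), both higher in Ripk1-hepKO. These were named after their values were seen, and neither passed (edgeR adjusted p = 0.750 and 0.742). Jun, a target of JNK, stood at 98.1 CPM in mouse 28, at 16.2 to 27.3 CPM in the other Ripk1-hepKO mice and at 11.3 to 19.8 CPM in Ripk1-Con (edgeR adjusted p = 0.742).

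The partners of IKK-epsilon had small differences in both directions. Of 6 tested genes of the TBK1 complex and the IRF arm, 3 lay above 0 and 3 below, with a median of 0.0029, which was -0.07 without mouse 28. Tbk1, the closest relative of Ikbke, stood at 29.2 ± 8.36 CPM in Ripk1-hepKO and 27.9 ± 4.88 CPM in Ripk1-Con (log2 ratio 0.06 with an SE of 0.20; adjusted p = 0.961 in edgeR); it was named after its values were seen. The adaptor Azi2 stood at 40.3 ± 2.53 CPM in Ripk1-hepKO and 46.8 ± 5.10 CPM in Ripk1-Con, and Irf7 at 17.0 ± 2.24 CPM in Ripk1-hepKO and 15.2 ± 3.29 CPM in Ripk1-Con (edgeR adjusted p = 0.760 and 0.868). The difference between Ikbke and these genes was not tested. Ifnb1 had 0 counts in all 8 mice.

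The 3 chaperone genes on which IKK folding depends lay below 0, with a median of -0.35 and none past the test. Leaving out mouse 28 gave a median of -0.18 with 1 of 3 above 0, and leaving out Ripk1-Con mouse 32 gave -0.16. Hsp90aa1 stood at 221 ± 60.2 CPM in Ripk1-hepKO and 324 ± 160 CPM in Ripk1-Con, and Hsp90ab1 at 832 ± 255 CPM in Ripk1-hepKO and 1062 ± 235 CPM in Ripk1-Con (edgeR adjusted p = 0.771 and 0.793). Ripk1-Con mouse 32 had the highest value of both, at 556 and 1412 CPM.

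Downstream, 7 of 10 genes for NF-kB proteins and their inhibitors lay above 0, with a median of 0.47. The 3 below 0 were Rel (log2 ratio -0.18), Nfkbia (-0.12) and Nfkbiz (-0.09), named after their values were seen. Without mouse 28, 7 of 10 lay above 0 and the median was 0.29, and it was 0.27 without mice 28 and 40. Nfkb2, the precursor used by the noncanonical arm, measured 12.8, 8.98, 6.73 and 12.6 CPM among Ripk1-hepKO livers, against 5.25, 6.30, 6.38 and 6.10 CPM among Ripk1-Con livers. All 4 Ripk1-hepKO mice were above the controls, with mice 28 and 39 the highest (log2 ratio 0.77 with an SE of 0.21; adjusted p = 0.742 in edgeR). Its partner Relb stood at 3.64 ± 1.64 CPM in Ripk1-hepKO and 1.63 ± 0.552 CPM in Ripk1-Con (log2 ratio 1.17 with an SE of 0.39; adjusted p = 0.742 in edgeR). The Relb groups overlapped, with a lowest Ripk1-hepKO value of 1.52 CPM and a highest Ripk1-Con value of 2.35 CPM.

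**Figure D5:**
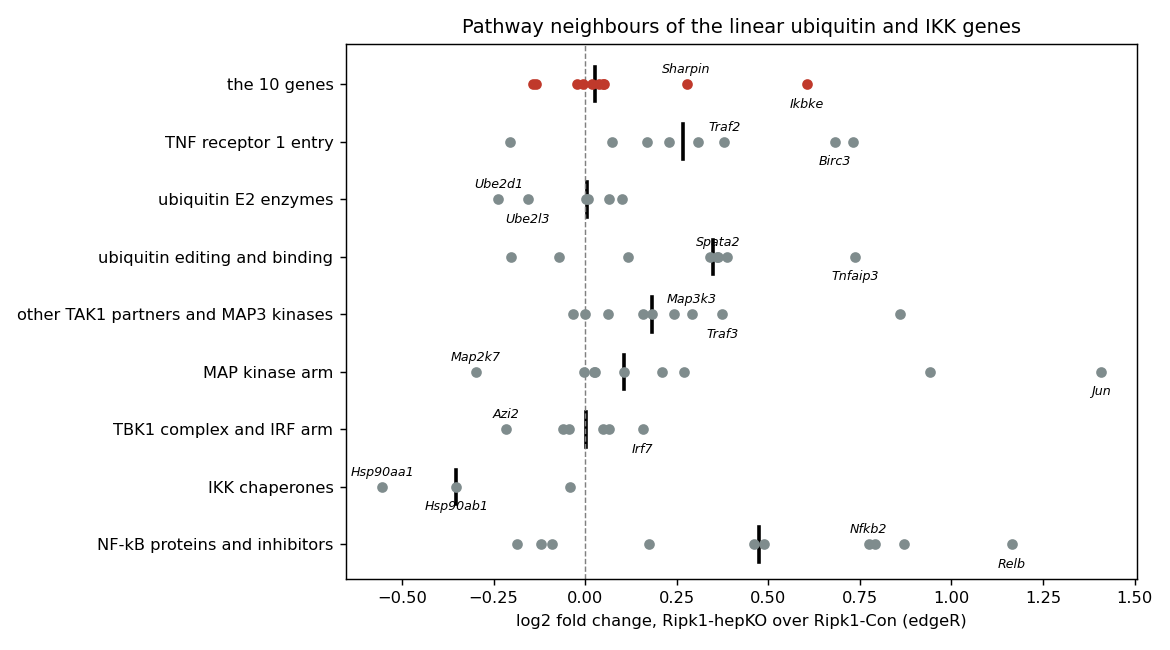
Log2 fold change of each tested gene, Ripk1-hepKO over Ripk1-Con, for the 10 genes (top) and 8 lists around them, with the median of each list as a bar. The medians run from -0.35 for the IKK chaperones to 0.47 for the NF-kB proteins (-0.18 and 0.29 without mouse 28), and 0 genes pass the FDR.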

How the data were processed

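The authors deposited 1 table of whole-number counts per Ensembl gene for 8 liver libraries, not normalized. Per the labels' protocols, libraries were strand-specific and read from both ends at 150 bp. Per the submitters' processing notes, which give no order or role, the build was GRCm38.p6 and the tools were DESeq2 1.38.1, StringTie 2.2.1, STAR 2.5.2b and FastQC 0.11.5. The counting tool, its annotation and its strand setting are not given in the sources used here, so reads in exons shared with another gene may be counted for either. Symbols, positions and lengths came from GENCODE M21 (GRCm38), which matched 55154 IDs and left 181 unmatched. No libraries agreed within sampling noise (chi-square per degree of freedom at least 36.9).

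Genes were filtered with filterByExpr, scaled by TMM and tested with edgeR 4.0.16 (robust quasi-likelihood, genotype alone, R 4.3.3), with Benjamini-Hochberg adjustment over 15234 genes. SE and intervals come from the quasi-likelihood F. The spread between mice, as a common biological coefficient of variation, was 0.292. The labels name no molecular identifiers, so counts are of reads and not of molecules. In counts simulated for this comparison over 14949 genes, 8% of genes changed 1.5-fold, 70% at 2-fold and 96% at 4-fold were called, with 50 genes at each fold. The changed genes were drawn only from those above a minimum mean level, and 6 unchanged genes were called. These rates hold for that setting and are not the power of the real comparison, where the lowest adjusted p in edgeR was 0.742. The 10 genes and the lists were chosen with earlier results of these data known. Named are the 10 genes, Ripk1, the 2 members of smallest p in each list and the 3 genes most like the member of smallest p; other names are marked, or serve as markers or context. Alternatives used DESeq2 1.42.0 (all genes of the table), limma 3.58.1 voom, other scalings and filters, and mice left out; counts without mouse 28 were added after seeing the data. One list of cell type markers is not reported here.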

Additional observations from a re-analysis of the deposited data

Results flagged for a closer look

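Within each group, 27 named genes were searched for a mouse far from the other 3 (gap over range above Dixon's 95% critical value). Of 54 groups, 4 held such a mouse, while chance gives about 1 in 20. Ikbkb stood at 75.5 CPM in Ripk1-hepKO mouse 39, against 58.5 to 60.9 CPM in the other Ripk1-hepKO mice. Traf2 stood at 13.1 CPM in the same mouse, against 10.04 to 10.16 CPM. Jun stood at 98.1 CPM in Ripk1-hepKO mouse 28, against 16.2 to 27.3 CPM. Hsp90ab1 stood at 1412 CPM in Ripk1-Con mouse 32, against 909 to 972 CPM in the other Ripk1-Con mice.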

How the results depend on the processing

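The call rate depended on the tool: DESeq2 called 15 genes (7 higher, 8 lower), and every edgeR fit and limma voom called 0, with 633 to 1451 genes at an unadjusted p under 0.05. No alternative brought any of the 10 genes past the threshold. Ikbke (0.36 to 0.75 on the log2 scale), Sharpin (0.23 to 0.36), Rbck1, Map3k7 and Tab2 kept their sign in all 17 alternatives. Otulin, near 0, was 0.014 with library size alone, 0.0053 without a filter and 0.0013 in DESeq2, and ran from -0.11 to 0.066 with 1 mouse left out. Ikbkg was 0.017 with library size alone, 0.24 without mice 28 and 40, and -0.13 to 0.15 with 1 mouse left out. Chuk was -0.25 without mice 28 and 40, and -0.20 to 0.16 with 1 mouse left out. Ikbkb ran from -0.069 to 0.072 and Rnf31 from -0.0033 to 0.089 with 1 mouse left out. List medians were set against the SD between mice of the list's mean log2 level. They moved by more than it for ubiquitin editing genes (-0.0027 without mice 28 and 40; 0.087 to 0.39 with 1 mouse left out), TAK1 partners (-0.11 without mice 28 and 40), the TBK1 complex (-0.13 without mice 28 and 40) and E2 enzymes (-0.029 to 0.057 with 1 mouse left out). With 1 mouse left out, medians ran from -0.53 to -0.16 for the chaperones, 0.29 to 0.60 for NF-kB proteins, 0.07 to 0.25 for the MAP kinase arm and -0.0082 to 0.29 for TAK1 partners, all within that SD. With the longest transcript as length, 6 of 10 genes kept their place in the order of levels. The cause of these shifts was not tested. No paired analysis was possible because the mice of the groups compared share no numbers.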
